A study of Homo sapiens with 12 samples.

Results

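The 9 transcription factor genes described here govern the B-cell programme and the step from B cell to plasma cell: *PAX5*, *EBF1*, *SPIB*, *POU2AF1*, *BCL6*, *BACH2*, *IRF4*, *PRDM1* and *XBP1*. They were chosen by symbol, for their known roles, with earlier results of these data known. They were read in 2 tables of RNA counts that together list 23533 genes. All 9 are among the 22441 genes of the MEC1 table, and 8 are among the 17144 genes of the JVM2 table, which does not list *BCL6*. MEC1 and JVM2 are human leukaemic B-cell lines in established use, and the study asked how more UGT2B17, an enzyme that couples small lipophilic molecules to glucuronic acid, changes them. RNA of 3 biological replicates was sequenced for each of 4 cell populations, 12 libraries in all. MEC1-2B17 and JVM2-2B17 cells stably carried the coding sequence of human *UGT2B17* in the pcDNA6 vector and were grown in blasticidin. JVM2-CTRL cells carried pcDNA6 without an insert, also in blasticidin. MEC1-CTRL cells instead held an shRNA that represses *UGT2B17* and were grown in puromycin, so the MEC1 arms differed in construct and antibiotic as well as in *UGT2B17*. Whether a population was a clone or a pool is not given in the sources used here.

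In a B cell, PAX5 and EBF1 hold the identity of the lineage by switching on genes of the B-cell receptor and silencing those of other lineages, while BCL6 and BACH2 keep an activated B cell in the germinal centre. PRDM1, the protein called Blimp-1, represses *PAX5*, *BCL6* and much of the B-cell programme when a cell becomes a plasma cell, and BCL6 and BACH2 repress *PRDM1* in turn. IRF4 acts at both stages according to its amount, and XBP1 builds the secretory machinery that antibody export needs.

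The libraries held 31762649 to 37744991 counts in MEC1 and 8809179 to 11231330 counts in JVM2, so the same level rests on fewer counts in JVM2. *UGT2B17* itself was higher in every 2B17 library than in every CTRL library of its line, by 0.94 on the log2 scale in MEC1 (SE 0.069, adjusted *P* = 2.0e-09) and by 0.48 in JVM2 (SE 0.11, adjusted *P* = 0.00481). The B-cell markers *MS4A1*, *CD79A*, *CD79B*, *CD22* and *PTPRC* were present at 1 CPM or more in each group, where CPM is a count scaled by TMM to the size of its library. No T-cell marker reached 1 CPM in any group: 4 of the 6 were listed in MEC1, with a summed level of 0.356 to 0.602 CPM, and none in JVM2. Myeloid markers summed to 4.3 to 5.88 CPM in MEC1, and in JVM2 to 5.71 to 6.97 CPM in CTRL and 11.8 to 14.6 CPM in 2B17 cells, mostly *ITGAM*, while *CD14*, *MPO* and *CEBPA* were not listed there. The part of these transcripts in the JVM2 changes was not tested. Markers of epithelial and stromal cells summed to 3.3 to 6.3 CPM in MEC1 and 39.5 to 52.5 CPM in JVM2, mostly *KRT18* and *PDGFRB*. The 2B17 library of JVM2 with replicate number 2 stood apart from the rest, with a root mean square deviation from its group mean of 0.233 on the log2 scale over all genes against 0.159 to 0.196 in the other 11 libraries. Results that rest on this library are given below with and without it.

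Per kilobase of exon, *IRF4* was the most abundant of the genes in every population, followed by *XBP1*, *PAX5* and *POU2AF1*. In MEC1-CTRL cells the levels were 186 ± 2.58 CPM per kb (SD, n = 3) for *IRF4*, 115 ± 3.38 for *XBP1*, 34.4 ± 1.23 for *PAX5* and 16.5 ± 0.0292 for *POU2AF1*. Below them came *EBF1* (11.9 ± 0.276), *SPIB* (5.77 ± 0.311), *BCL6* (0.646 ± 0.0475), *PRDM1* (0.342 ± 0.0117) and *BACH2* (0.00499 ± 0.00441). No neighbours in this order overlapped in MEC1-CTRL or in MEC1-2B17 cells, whose order was the same. In JVM2-CTRL cells *PRDM1* came next after *POU2AF1*, at 14.7 ± 0.362 CPM per kb, and its libraries overlapped those of that gene at 15.5 ± 1.57. In JVM2-2B17 cells *PRDM1* had 4.92 ± 0.642 CPM per kb and its libraries overlapped those of *EBF1* at 7.09 ± 1.51. The remaining neighbours in the JVM2 groups did not overlap.

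**Figure D1:**
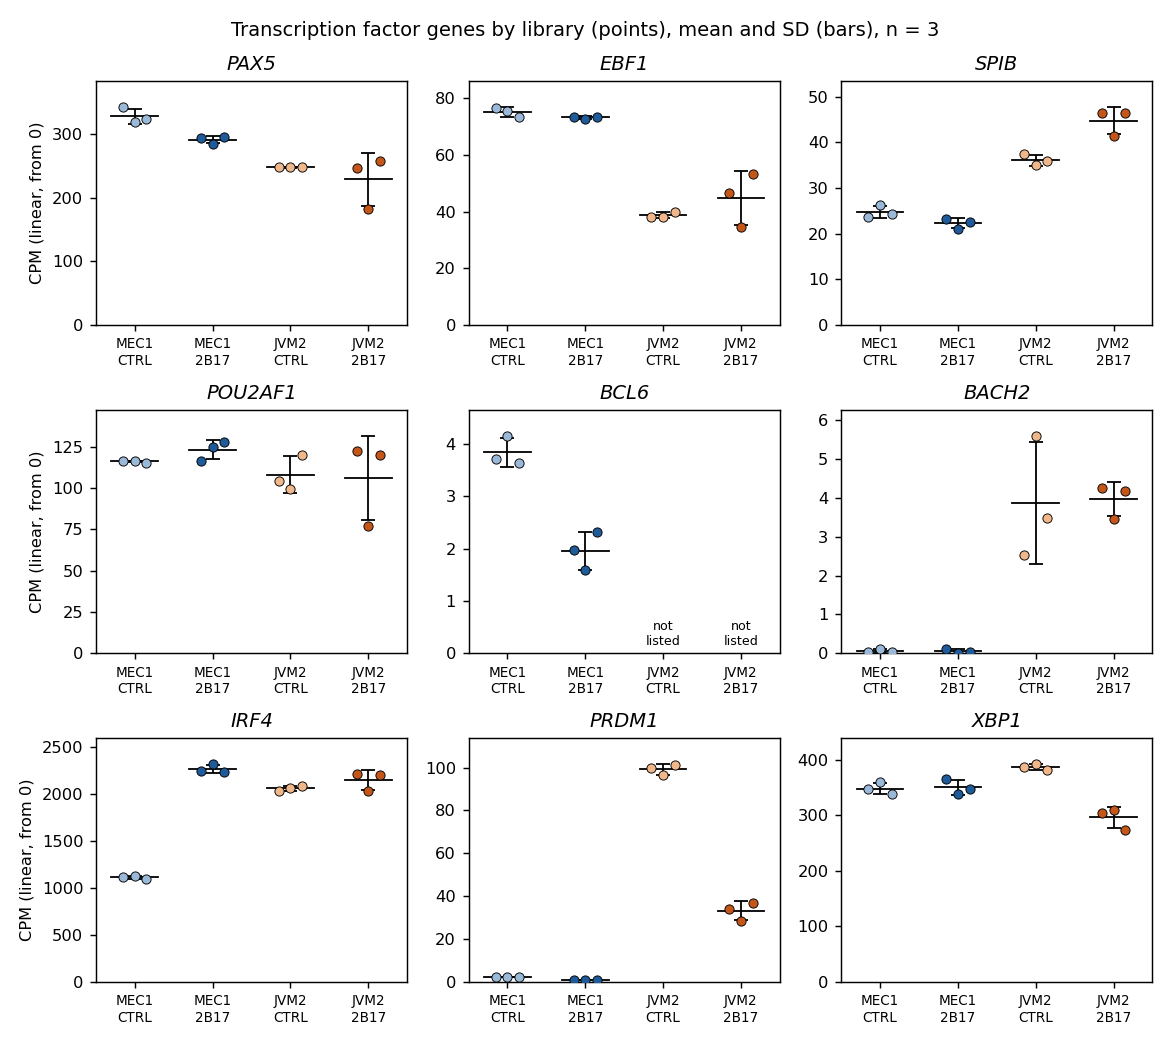
Level of each transcription factor gene in CPM (linear axis from 0, own scale in each panel) in the 4 populations; points are the 3 replicates, horizontal lines the means and bars the SD. *IRF4* rises from 1109 to 2262 CPM in MEC1, *PRDM1* falls in each line from very different starting levels, and *BCL6* is not listed in JVM2.

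Start regions of 8 of the genes were read in RefSeq (build GRCh38.p14), as 11 windows of 250 bases before to 50 after a start site, and were searched on both strands for binding motifs of the same family of factors. The motifs were ATGCAAAT (the octamer of POU2F factors and POU2AF1), GAAAGTG (PRDM1 core), TGAGTCA (BACH2 with a small Maf protein), CCCNNGGG (EBF1), GAGGAAGT (SPIB and SPI1), TTCCTAGAA (BCL6) and CCACGTG (XBP1). A match was found in 5 windows, each given as 30 bases on the strand of the gene, 5′ to 3′, with the match in capitals. They are shown because they are the places where the start of a gene of this circuit holds the letters of another factor of the circuit, or of its own.
*BCL6*, upstream start, chr3:187745419-187745448, minus strand: tggtgatgcaagaagtTTCTAGGAAaggcc
*BCL6*, downstream start, chr3:187736560-187736589, minus strand: cgcatctggagTGAGTCAttgccacttgtc
*EBF1*, chr5:159097965-159097994, minus strand: gggctggaagtGAAAGTGtgtgcgcggggc
*PRDM1*, downstream start, chr6:106098888-106098917, plus strand: cttctacccagTGACTCAaagcactaaaag
*SPIB*, chr19:50418725-50418754, plus strand: ccaaacccagcCCCACGGGgatccccaaat
With the start site counted as 0, the BCL6 motif in *BCL6* spanned positions 36 to 44, read on the reverse strand. The BACH2 motif spanned positions -77 to -71 in *BCL6* and, on the reverse strand, -42 to -36 in *PRDM1*. Both stretches of *BCL6* lay in annotated exon sequence of that gene, and the other 3 stretches in none of their own gene. The PRDM1 core spanned -27 to -21 in *EBF1*, and the EBF1 motif spanned -202 to -195 in *SPIB*. Among all 35116 start regions in the same table, 0.373% held the BCL6 motif, 4.95% the BACH2 motif, 4.68% the PRDM1 core and 19.1% the EBF1 motif. The octamer (1.77%), the SPIB motif (2.59%) and the XBP1 motif (4.2%) had no match in the windows of these genes. The BACH2 motif as searched is only a part of the Maf site, and the XBP1 motif includes an E-box. A match to a motif therefore does not show which factor, if any, uses it. These matches describe letters, and no binding was measured.

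With *UGT2B17* raised in MEC1, *IRF4* doubled in level while *PRDM1* and *BCL6* fell by more than any other gene of the group, and *PAX5* fell slightly. Of the 8 genes with enough counts to test, 6 passed an adjusted *P* of 0.05 with edgeR's quasi-likelihood test, 2 of them higher (*IRF4* and *POU2AF1*) and 4 lower (*PRDM1*, *BCL6*, *PAX5* and *SPIB*) in 2B17 cells. Over all 16581 genes tested in MEC1, 41.7% passed, 20% higher and 21.6% lower, so a call is common in this comparison. The median log2 fold change of the 8 genes was -0.09, against 0.00 over all genes. In JVM2, 3 of 8 passed, *SPIB* higher and *PRDM1* and *XBP1* lower, where 29.3% of 13021 genes passed, 14.1% higher and 15.3% lower. Their median was -0.00, against 0.00 over all genes. The exact two-sided permutation test of a single gene cannot go below *P* = 0.1 with 3 libraries against 3, and reached that value for each gene that passed. The methods of the study call the replicates biological, and nothing further says how they were separated, so these *P*-values measure the spread between the samples as given.

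**Figure D2:**
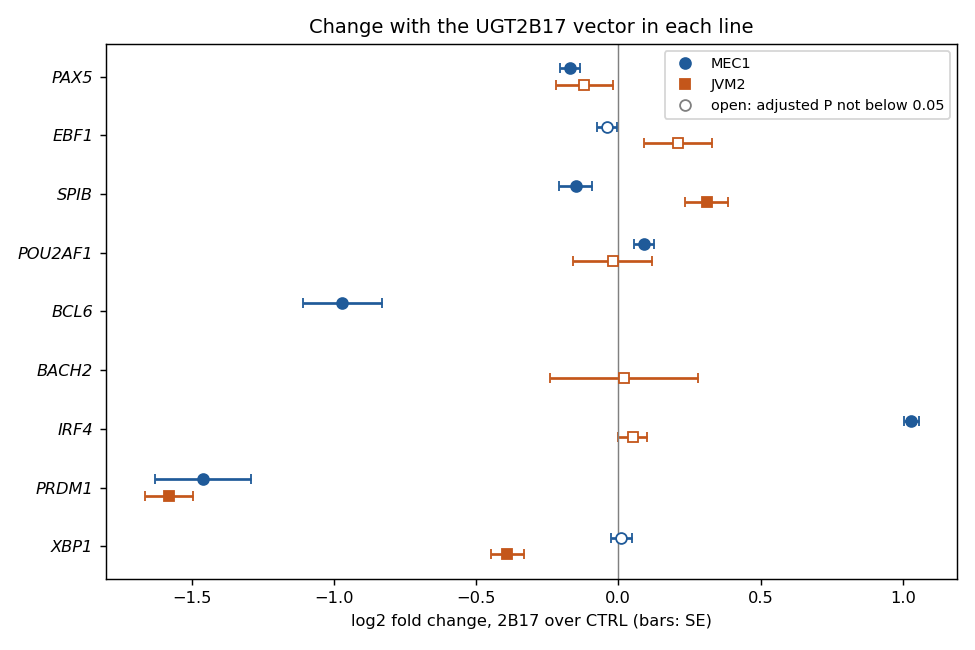
Log2 fold change of 2B17 over CTRL cells for each transcription factor gene in MEC1 (circles) and JVM2 (squares), with bars for the SE; filled symbols have an adjusted *P* below 0.05. *PRDM1* lies at -1.46 and -1.58 in MEC1 and JVM2, *IRF4* at 1.03 in MEC1 and 0.05 in JVM2, and *SPIB* on opposite sides of 0.

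*PRDM1* (ENSG00000057657, chr6:105993463-106109939, plus strand), the repressor that drives plasma-cell differentiation, fell in both lines. Its level in MEC1-CTRL replicates 1, 2 and 3 was 2.39, 2.3 and 2.23 CPM, and in those of MEC1-2B17 it was 0.78, 0.781 and 0.95 CPM. Each MEC1-2B17 library was below each MEC1-CTRL library, with counts of 28, 27 and 32 against 96, 84 and 79. The log2 fold change was -1.46 (SE 0.17, adjusted *P* = 8.3e-07), a level 2.76-fold lower. JVM2-CTRL cells had 99.8, 96.5 and 101 CPM, and JVM2-2B17 cells had 34.2, 28.5 and 37 CPM. Here too the groups stayed clear of each other, and the log2 fold change was -1.58 (SE 0.085, adjusted *P* = 4.5e-08), a level 2.99-fold lower. The change in MEC1 minus that in JVM2 was 0.12 (SE 0.20, adjusted *P* = 0.708), so a difference between the lines was not detectable, with a 95% interval from -0.28 to 0.51. RNA of whole cultures was measured, in which fewer cells making a transcript and less of it per cell cannot be told apart. The 4 plasma-cell markers (*SDC1*, *TNFRSF17*, *MZB1* and *JCHAIN*) were all present, and their summed level went from 509 to 534 CPM in MEC1-CTRL to 480 to 484 CPM in MEC1-2B17, and from 1872 to 1949 CPM in JVM2-CTRL to 1343 to 1422 CPM in JVM2-2B17. In MEC1 that sum holds markers that went opposite ways, *SDC1* from 61.9 to 106 and *MZB1* from 142 to 214 CPM, against *TNFRSF17* from 39.2 to 20 and *JCHAIN* from 275 to 142 CPM. Their part in the fall of *PRDM1* was not tested.

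*IRF4* (ENSG00000137265, chr6:391739-411443, plus strand), needed for both the germinal centre and the plasma cell, rose in MEC1. The MEC1-CTRL replicates had 1109, 1125 and 1094 CPM, and the MEC1-2B17 replicates had 2242, 2315 and 2231 CPM. The spread within each arm was small beside the gap between them, and the log2 fold change was 1.03 (SE 0.026, adjusted *P* = 1.2e-15). JVM2-CTRL libraries held 2032, 2056 and 2085 CPM, about the level that MEC1 cells reached with the *UGT2B17* vector. JVM2-2B17 libraries held 2207, 2027 and 2204 CPM and overlapped them, for a log2 change of 0.05 (SE 0.05, adjusted *P* = 0.453). The change differed between the lines by 0.97 (SE 0.055, adjusted *P* = 4.1e-11). *IRF4* and *PRDM1*, both genes that a plasma cell expresses, thus moved in opposite directions in MEC1, and in JVM2 only *PRDM1* of this pair passed the test.

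*XBP1* (ENSG00000100219, chr22:28794555-28800597, minus strand), the regulator of secretory capacity, fell in JVM2. The JVM2-CTRL replicates had 387, 392 and 382 CPM and the JVM2-2B17 replicates 304, 310 and 274 CPM, without overlap. The log2 fold change was -0.39 (SE 0.059, adjusted *P* = 3.0e-04). In MEC1 the values were 348, 359 and 338 CPM in CTRL cells and 365, 338 and 348 CPM in 2B17 cells. These overlapped throughout, with a log2 change of 0.01 (SE 0.037, adjusted *P* = 0.895). The difference of the changes, MEC1 minus JVM2, was 0.40 (SE 0.071, adjusted *P* = 2.4e-04). Counts per gene do not separate the spliced, active form of the *XBP1* transcript from the unspliced form.

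*BCL6* (ENSG00000113916, chr3:187721377-187745725, minus strand), the repressor that defines the germinal centre B cell, fell in MEC1 at a low level. MEC1-CTRL replicates had 149, 152 and 129 counts, or 3.71, 4.16 and 3.64 CPM. MEC1-2B17 replicates had 71, 55 and 78 counts, or 1.98, 1.59 and 2.32 CPM, all below the controls. The log2 fold change was -0.97 (SE 0.14, adjusted *P* = 1.5e-05). The JVM2 table does not list the gene; no gene that either table lists has fewer than 10 counts in total, and no value is given for *BCL6* in JVM2.

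*BACH2* (ENSG00000112182, chr6:89926528-90296843, minus strand), a repressor of *PRDM1* in B cells, was almost without counts in MEC1. The MEC1-CTRL libraries held 1, 4 and 1 counts and the MEC1-2B17 libraries 4, 0 and 1, too few to test a change between the arms. JVM2-CTRL libraries held 24, 57 and 31 counts (2.52, 5.61 and 3.49 CPM), and JVM2-2B17 libraries held 44, 29 and 35 counts (4.25, 3.46 and 4.19 CPM). The controls spread over the whole range of the 2B17 cells. The log2 fold change was 0.02 (SE 0.26, adjusted *P* = 0.966), with a 95% interval from -0.50 to 0.54.

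*PAX5* (ENSG00000196092, chr9:36833269-37034268, minus strand), the guardian of B-cell identity, had 343, 320 and 325 CPM in MEC1-CTRL and 295, 285 and 296 CPM in MEC1-2B17 cells. The MEC1 groups did not overlap, and the fall was small, with a log2 change of -0.17 (SE 0.036, adjusted *P* = 5.9e-04). With all 12 libraries in 1 fit, the same change no longer passed (adjusted *P* = 0.0922). JVM2-CTRL cells had 249, 248 and 249 CPM and JVM2-2B17 cells had 247, 182 and 258 CPM. The low value is that of the library that stood apart, and the log2 fold change was -0.12 (SE 0.10, adjusted *P* = 0.403) with it and 0.02 (adjusted *P* = 0.831) without it. Antisense to *PAX5*, the long non-coding gene ENSG00000250850 shares 126 bases of exon (1.32% of those of *PAX5*) and had 20 counts over the MEC1 libraries and 521 over the JVM2 libraries; whether counting used the strand is not given in the sources used here.

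*EBF1* (ENSG00000164330, chr5:158695920-159099916, minus strand), the partner of PAX5 in B-cell commitment, had 76.7, 75.5 and 73.2 CPM in MEC1-CTRL and 73.4, 72.7 and 73.5 CPM in MEC1-2B17 cells. The arms overlapped, with a log2 change of -0.04 (SE 0.035, adjusted *P* = 0.416). JVM2-CTRL replicates had 38, 38.2 and 39.8 CPM, and those of JVM2-2B17 had 46.5, 34.5 and 53.3 CPM. Only the library that stood apart lay below the controls. With it the log2 fold change was 0.21 (SE 0.12, adjusted *P* = 0.24), and without it 0.36 (adjusted *P* = 4.2e-04).

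*SPIB* (ENSG00000269404, chr19:50418938-50431314, plus strand), an ETS factor of B cells that restrains plasma-cell differentiation, moved in opposite directions in the lines. It had 37.4, 35.1 and 35.9 CPM in JVM2-CTRL and 46.4, 41.4 and 46.5 CPM in JVM2-2B17 cells, a rise without overlap. The log2 fold change was 0.31 (SE 0.077, adjusted *P* = 0.0104), and it missed the threshold without JVM2-CTRL replicate 2 (0.28, adjusted *P* = 0.0563). In MEC1 the level went from 23.7, 26.2 and 24.2 CPM to 23.2, 21.1 and 22.6 CPM, so that the arms stayed just apart. That log2 fold change was -0.15 (SE 0.058, adjusted *P* = 0.0483), and the call was lost with DESeq2 (adjusted *P* = 0.103) and without MEC1-CTRL replicate 2 or 3 or MEC1-2B17 replicate 2 or 3 (adjusted *P* up to 0.243). The difference between the lines, -0.46 (SE 0.096, adjusted *P* = 9.2e-04), passed with each of the 12 libraries left out in turn, with adjusted *P* from 1.4e-04 to 0.00468. A same-strand gene, ENSG00000142539, shares 839 bases (19.6%) of the exons of *SPIB* and is listed in neither table, so how reads there were counted is unknown.

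*POU2AF1* (ENSG00000110777, chr11:111352255-111455630, minus strand), the coactivator of octamer-binding factors, had 116, 116 and 115 CPM in MEC1-CTRL and 116, 125 and 128 CPM in MEC1-2B17 cells. The arms nearly touched, and the log2 fold change of 0.09 (SE 0.035) was at the threshold, with an adjusted *P* of 0.0496. DESeq2 gave an adjusted *P* of 0.0911, and the call was lost when any library of MEC1 other than MEC1-2B17 replicate 1 was left out (adjusted *P* up to 0.172). JVM2-CTRL libraries had 104, 99.4 and 120 CPM, and JVM2-2B17 libraries had 122, 76.9 and 120 CPM. They overlapped, with a log2 change of -0.02 (SE 0.14, adjusted *P* = 0.917). Without JVM2-2B17 replicate 2, the lowest library, it was 0.16 (adjusted *P* = 0.0436).

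The change with the *UGT2B17* vector differed between the lines for 3 of the 8 genes in both tables, *IRF4*, *XBP1* and *SPIB*, by the interaction of line and arm over all 12 libraries. Over all 15130 genes tested, 32.2% passed the same test. Without JVM2-2B17 replicate 2, 5 of the genes passed, with *PAX5* (-0.18, adjusted *P* = 0.0208) and *EBF1* (-0.39, adjusted *P* = 2.5e-04) added. These values are the change in MEC1 minus the change in JVM2, on the log2 scale. *UGT2B17* itself also passed this interaction test with all 12 libraries, at 0.46 (SE 0.13, adjusted *P* = 0.00819). Construct and antibiotic differed between the MEC1 arms and not between the JVM2 arms. The part of these differences in the interaction was not tested.

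At baseline the lines differed most in *BACH2* and *PRDM1*, a pair of which the former represses the latter, and both were far lower in MEC1. Of the 8 genes in both tables, 7 passed between MEC1-CTRL and JVM2-CTRL cells, *PAX5* and *EBF1* higher in MEC1 and *BACH2*, *SPIB*, *IRF4*, *PRDM1* and *XBP1* lower. That share stands beside 81.1% of all 14705 genes tested, 41.3% higher and 39.8% lower in MEC1. For the 8 genes the median log2 ratio of MEC1 over JVM2 was -0.35, against 0.04 over all genes. Line, control construct, antibiotic, depth and the level of *UGT2B17* differ together in this comparison and cannot be told apart. *UGT2B17* had 10.3 CPM in MEC1-CTRL against 29.4 CPM in JVM2-CTRL cells, a log2 ratio of -1.50 (SE 0.081, adjusted *P* = 2.7e-13 with edgeR's quasi-likelihood test). In 2B17 cells it had 19.9 CPM in MEC1 against 41.1 CPM in JVM2, a ratio of -1.05 (SE 0.097). Sequencing was done at 2 sites, and which samples went to which site is not given in the sources used here, so a part of the site in any difference between the lines was not tested. Scaling by library size only shifted all ratios of MEC1 over JVM2 by 0.17, so small ratios depend on the scaling. These controls are also those of the comparisons between arms, so the results are not independent of each other.

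*PRDM1* was 42.9-fold lower in MEC1-CTRL than in JVM2-CTRL cells, 2.31 ± 0.0789 CPM (SD, n = 3) against 99.2 ± 2.45, a log2 ratio of -5.42 (SE 0.07, adjusted *P* = 4.7e-24). The ratio was much the same in 2B17 cells, 0.837 ± 0.0982 against 33.2 ± 4.34 CPM, at -5.32 (SE 0.14, adjusted *P* = 2.4e-12). *BACH2* had 112 counts over the JVM2-CTRL libraries and 6 over the deeper MEC1-CTRL libraries. With counts pooled and scaled by the pooled TMM library sizes, the level was 73.3-fold higher in JVM2. The 95% interval of 32.6 to 204 covers counting error only. In 2B17 cells the level was 83.1-fold higher (34.5 to 261), from 108 and 5 counts. The line with more *PRDM1* thus also had more *BACH2*, with or without the *UGT2B17* vector.

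*EBF1* was higher in MEC1-CTRL cells, 75.1 ± 1.75 CPM (SD, n = 3) against 38.7 ± 0.968, a log2 ratio of 0.96 (SE 0.049, adjusted *P* = 1.1e-13). *PAX5* was higher as well, 329 ± 11.8 against 248 ± 0.6 CPM, with a ratio of 0.41 (SE 0.043, adjusted *P* = 1.9e-08). In MEC1 both lineage factors were above their level in JVM2, and in 2B17 cells the ratio was 0.70 for *EBF1* (SE 0.11, adjusted *P* = 5.8e-05) and 0.34 for *PAX5* (SE 0.098, adjusted *P* = 0.007). *SPIB* was lower in MEC1-CTRL, 24.7 ± 1.33 against 36.1 ± 1.19 CPM, with a log2 ratio of -0.55 (SE 0.068, adjusted *P* = 2.3e-07). In 2B17 cells, in which its level went opposite ways, that ratio was -1.02 (SE 0.073, adjusted *P* = 4.1e-08). *POU2AF1* was not called at baseline (116 ± 0.204 against 108 ± 11 CPM, log2 ratio 0.10, adjusted *P* = 0.0879), although it passed when JVM2-CTRL replicate 3 was left out (0.18, adjusted *P* = 0.00224), with library size only (0.27, adjusted *P* = 9.3e-05), with no filter (0.12, adjusted *P* = 0.046) and with at least 10 counts asked of every library (0.17, adjusted *P* = 0.00709). Among 2B17 cells its ratio was 0.19 (SE 0.13, adjusted *P* = 0.181), and 0.38 (adjusted *P* = 0.0136) with library size only.

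*IRF4* was lower in MEC1-CTRL cells, 1109 ± 15.4 CPM (SD, n = 3) against 2058 ± 26.5, with a log2 ratio of -0.89 (SE 0.029, adjusted *P* = 3.7e-17). Among 2B17 cells the same ratio was 0.06 (SE 0.051, adjusted *P* = 0.26), from 2262 ± 45.4 against 2146 ± 103 CPM, although no library of the groups overlapped. With library size only it was 0.25 (adjusted *P* = 3.4e-04) and with at least 10 counts asked of every library 0.13 (adjusted *P* = 0.0393). *XBP1* was slightly lower in MEC1-CTRL cells, 348 ± 10.2 against 387 ± 4.82 CPM, a ratio of -0.15 (SE 0.041, adjusted *P* = 0.00198) that turned to 0.02 (adjusted *P* = 0.682) with library size only and was -0.08 (adjusted *P* = 0.0801) with the stricter filter. In 2B17 cells it was higher in MEC1, 350 ± 13.8 against 296 ± 19.4 CPM, at 0.23 (SE 0.059, adjusted *P* = 0.00313). Among 2B17 cells 6 of the 8 genes passed, where 76.4% of 14600 genes did, and of the genes called 49.6% were higher in MEC1, or 60.2% with library size only.

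**Figure D3:**
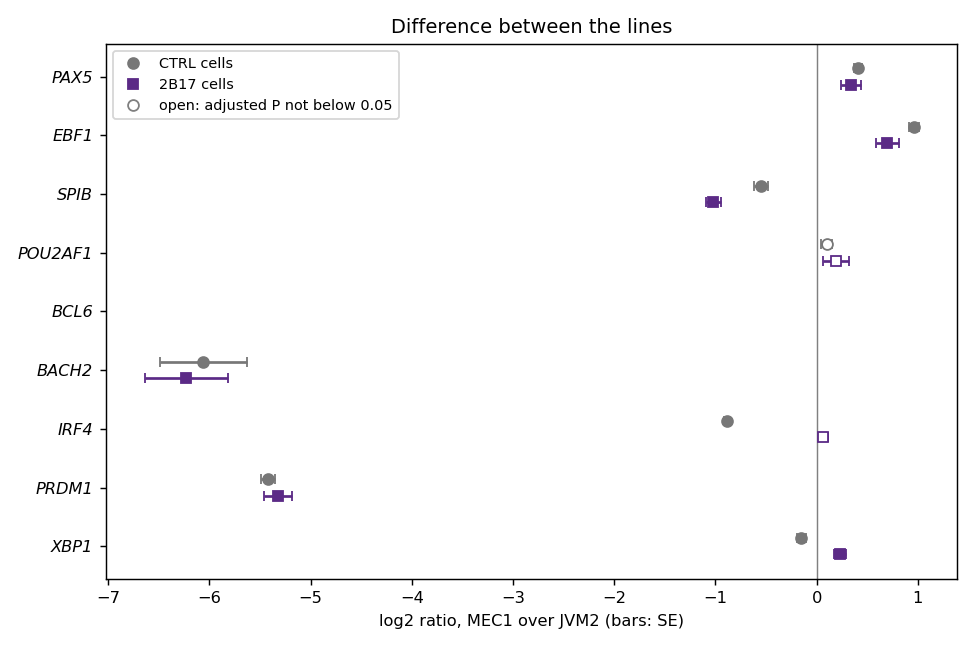
Log2 ratio of MEC1 over JVM2 for the 8 genes in both tables, in CTRL cells (circles) and in 2B17 cells (squares), with bars for the SE; filled symbols have an adjusted *P* below 0.05. *BACH2* and *PRDM1* lie below -5 in each, and *IRF4* moves from -0.89 to 0.06.

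Other genes of the same circuits were read as 5 lists, 99 genes in all, written from general knowledge, with earlier results of these data known. Calls in the XBP1 pathway list were nearly all one way within each line. It holds chaperones and translocation proteins of the endoplasmic reticulum, with *ERN1*, *ATF6* and other genes of the unfolded protein response and secretion. Which of them XBP1 controls in these cells was not tested. In MEC1, 14 of the 18 listed genes rose and 0 fell, with a median log2 fold change of 0.32, where 20% of all genes rose and 21.6% fell. In JVM2, 1 rose and 13 fell, with a median of -0.35, where 14.1% of all genes rose and 15.3% fell. *ATF6* and *SEC61B* passed in neither line. For 13 of the 18 the interaction passed, each with the change more positive in MEC1, and the median difference was 0.72; over all genes 32.2% passed. Over all genes the medians were 0.00, 0.00 and -0.02. *HYOU1*, a chaperone, went from 307 ± 13.4 to 461 ± 9.76 CPM in MEC1 (SD, n = 3), a log2 change of 0.59 (SE 0.038, adjusted *P* = 3.1e-10), and from 445 ± 6.31 to 283 ± 20.8 CPM in JVM2, -0.66 (SE 0.061, adjusted *P* = 5.4e-06). *SEC61A1*, the pore of the translocation channel, changed by 0.58 (SE 0.034) in MEC1 and -0.46 (SE 0.065) in JVM2. *SSR1*, a subunit of the translocon-associated complex, changed by 0.63 and -0.19, *MANF*, a secreted stress protein, by 0.52 and -0.87, and *PDIA4*, a disulphide isomerase, by 0.51 and -0.57, each past the test in both lines. At baseline 7 of the 18 were higher in MEC1 and 11 lower, and in 2B17 cells 15 were higher and 2 lower, in comparisons that called 81.1% and 76.4% of all genes. *XBP1* itself had a log2 value of 0.01 in MEC1, where the list rose, and fell in JVM2, where the list fell.

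Of 16 plasma-cell genes, 9 rose and 7 fell in MEC1 (median 0.14), and 0 rose and 9 fell in JVM2 (median -0.45), where 41.7% and 29.3% of all genes passed. *CD38*, a surface enzyme abundant on plasma cells, went from 4.6 ± 0.208 to 9.68 ± 0.351 CPM in MEC1 (1.07, SE 0.085, adjusted *P* = 5.8e-09) and from 71 ± 2.1 to 23.2 ± 2.78 CPM in JVM2 (-1.61, SE 0.087, adjusted *P* = 4.6e-08). *SDC1*, the plasma-cell surface proteoglycan CD138, changed by 0.77 and -0.48 in the same way. *ITM2C* fell in both lines, by 1.06 in MEC1 and by 1.36 in JVM2 on the log2 scale, as did *JCHAIN*, the joining chain of secreted antibodies, which the files call *IGJ*, at -0.95 and -0.47. *TXNDC5*, a thioredoxin-like protein of the endoplasmic reticulum, changed by -0.25 and -1.01. Without JVM2-2B17 replicate 2, 1 plasma-cell gene rose and 12 fell in JVM2. At baseline 6 were higher and 9 lower in MEC1, the line with less *PRDM1*, with a median of -0.64 against 0.04 over all genes, of which 81.1% passed.

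Germinal centre genes mostly fell in MEC1, the line in which *BCL6* could be tested and fell. Of the 17 tested there 1 rose and 10 fell, with a median of -0.17, and of 13 in JVM2 4 rose and 4 fell, with a median of -0.13 that was 0.05 with no filter on low counts. The shares called were 64.7% and 61.5%, beside 41.7% and 29.3% of all genes. *P2RY8*, a receptor that confines B cells to the follicle, changed by -0.90 and -0.27, and *STAP1*, an adaptor of B-cell signalling, by -1.05 and -0.39. *BCOR*, a corepressor that BCL6 recruits, had -0.07 (adjusted *P* = 0.276) in MEC1 and fell by 0.48 on the log2 scale in JVM2. *GCSAM* had 0.05 (adjusted *P* = 0.345) in MEC1 and 0.48 in JVM2, where it passed. A link between the fall of *BCL6* in MEC1 and the changes of these genes was not tested.

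Genes that mark B-cell identity, among them targets of PAX5 and EBF1, went both ways. In MEC1 7 rose and 7 fell of 18 tested (median -0.03), and in JVM2 6 rose and 4 fell of 15 (median 0.12, or -0.08 with no filter on low counts). That is 77.8% and 66.7% of the list, beside 41.7% and 29.3% of all genes. *MS4A1*, which encodes CD20, fell from 858 ± 13.7 to 574 ± 19.6 CPM in MEC1 (-0.58, SE 0.032, adjusted *P* = 3.9e-11) and rose from 541 ± 36.1 to 716 ± 27.7 CPM in JVM2 (0.40, SE 0.061, adjusted *P* = 3.8e-04). *CR2*, the complement receptor CD21, rose from 466 ± 17 to 821 ± 36.9 CPM in MEC1 (0.82, SE 0.036) and fell from 16.2 ± 1.44 to 0.335 ± 0.125 CPM in JVM2 (-5.56, SE 0.24), where the 2B17 libraries held 2 to 4 counts each. *BANK1*, a scaffold of B-cell receptor signalling, fell by 1.36 on the log2 scale in MEC1 and had too few counts to test between the JVM2 arms. *BLK*, a kinase of the same pathway, rose in both, at 0.42 and 0.67. The baseline comparison called all 18 genes, 12 higher and 6 lower in MEC1, with a median of 0.56, where 81.1% of all genes were called.

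Other transcription factors of the lineage and their partners changed in 19 of 27 cases in MEC1, 7 higher and 12 lower (median -0.10), and in 7 of 23 in JVM2, 4 higher and 3 lower (median -0.05). These are 70.4% and 30.4% of the list, beside 41.7% and 29.3% of all genes, so in this fit the JVM2 share is near that of the background. With all 12 libraries in 1 fit, 12 of 25 passed in JVM2, where 4593 genes passed over all. *ELL2*, an elongation factor that helps plasma cells switch to secreted antibody, rose in MEC1 from 120 ± 2.39 to 177 ± 3.2 CPM (0.56, SE 0.034, adjusted *P* = 1.7e-10) and fell in JVM2 from 337 ± 7.66 to 277 ± 5.06 CPM (-0.29, SE 0.052, adjusted *P* = 0.00113). *NFIL3*, *ID2* and *MEF2C* went the other way, falling in MEC1 (-0.73, -0.43 and -0.22) and rising in JVM2 (0.83, 0.51 and 0.37). *LEF1*, a partner of beta-catenin that is known for its expression in chronic lymphocytic leukaemia, rose from 15.4 ± 0.773 to 25.8 ± 0.387 CPM in MEC1 (0.74, SE 0.055) and is not in the JVM2 table. At baseline 21 of 25 (84%) differed between the lines, 12 higher and 9 lower in MEC1, near the 81.1% of all genes.

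**Figure D4:**
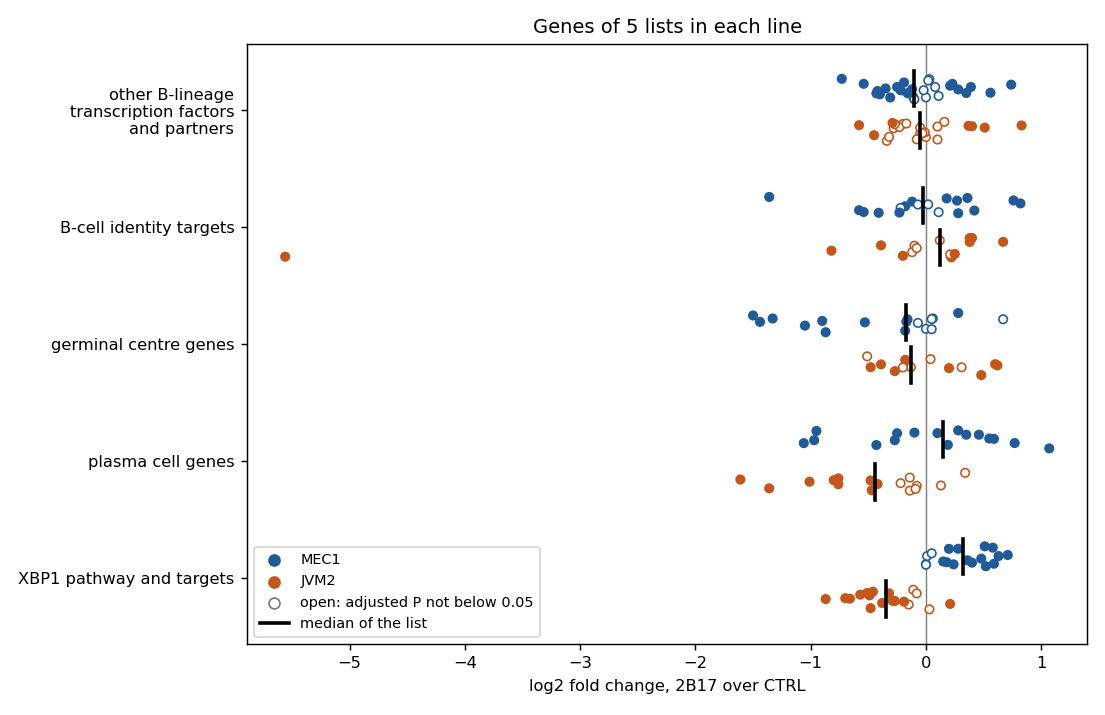
Log2 fold change of 2B17 over CTRL cells for each tested gene of 5 lists, in MEC1 (blue) and JVM2 (orange); filled points have an adjusted *P* below 0.05 and black bars are list medians. Most genes of the XBP1 pathway lie to the right of 0 in MEC1 (median 0.32) and to the left in JVM2 (median -0.35), and the point at -5.56 is *CR2*.

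As a description of which genes had the most similar pattern over the 4 group means, each of the 7 genes tested in both lines was compared with the rest of 12243 genes by the Euclidean distance of centred mean log2 CPM. The nearest to *IRF4* were *GPR176* (0.157) and *BTNL9* (0.193), the latter at 21.4 and 45.1 CPM in MEC1-CTRL and MEC1-2B17 cells and at 37.1 and 46.5 CPM in the matching JVM2 cells. *PRDM1* had no close match, its nearest being *MNDA* (0.81) at 1.14, 0.28, 48 and 24.8 CPM in the same order and *PEX5L* (0.862) at 2.64, 0.899, 53.4 and 31.8 CPM. The distances were shorter for the other genes: *PPP1R15B* lay 0.031 from *PAX5*, *ZNF655* 0.0454 from *EBF1*, *SERTAD3* 0.0161 from *SPIB*, *ORAI1* 0.0143 from *POU2AF1* and *ZNF436* 0.0317 from *XBP1*. These distances rest on 4 group means.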

How the data were processed

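Of the 12 samples, none was left out, and groups and replicate numbers came from the labels. Per the labels and the methods of the study, the authors depleted ribosomal RNA, trimmed paired reads with Trimmomatic, aligned them to hg38 with TopHat2 2.0.14 and deposited raw counts per Ensembl gene from HTSeq, 1 table per line. The annotation release and strand setting are not given in the sources used here. The tables also hold 12 columns of normalized values and the authors' own fold changes and *P*-values from edgeR and DESeq2, which were not used.

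Counts were fitted with edgeR 4.0.16 in R 4.3.3 (TMM, quasi-likelihood test, filterByExpr at a count of 10 and a total of 15), each line on its own. Comparisons between lines used genes of both tables, joined by identifier. *P*-values were adjusted by Benjamini-Hochberg over all genes tested, at 0.05. CPM are on 1 TMM scale over 12 libraries, and exon lengths and positions are from GENCODE release 44. Fold changes close to 0 counts depend on edgeR's prior count. The fits were tested on simulated data. The permutation test used scipy 1.17.1 on log2 CPM with a prior count of 0.5.

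Named were the 9 genes, *UGT2B17*, in each of 5 lists the 3 genes with the smallest *P* among those called in each line, listed genes past 1 on the log2 scale in both lines, and the 2 nearest patterns per gene, of which the closest are printed. A gene that this rule names is not reported here. The genes and lists were chosen with earlier results of these data known. Alternatives were DESeq2 1.42.0, RLE scaling, library size only, no filter or at least 10 counts in every library, all 12 libraries in 1 fit, library size over shared genes, the replicate number as a block, the rule of the study (adjusted *P* below 0.05 by DESeq2 and by the exact test of edgeR), and each replicate left out. With totals of 8809179 to 37744991 counts per library, intervals from counts cover counting error only.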

Additional observations from a re-analysis of the deposited data

Results flagged for a closer look

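The change with the *UGT2B17* vector differed between the lines for *IRF4*, *XBP1* and *SPIB* (edgeR's quasi-likelihood test of the interaction, 12 libraries). *IRF4* changed more in MEC1, by 0.97 on the log2 scale (adjusted *P* = 4.1e-11), and was higher in 3 of 3 MEC1-2B17 libraries than in any MEC1-CTRL library. *XBP1* differed by 0.40 (adjusted *P* = 2.4e-04) and was lower in 3 of 3 JVM2-2B17 libraries than in any JVM2-CTRL library. *SPIB* differed by -0.46 (adjusted *P* = 9.2e-04), with the groups apart in opposite directions. Its fall in MEC1 was at the threshold (adjusted *P* = 0.0483) and was not called with DESeq2 (adjusted *P* = 0.103). Construct and antibiotic also differed between the MEC1 arms and not between the JVM2 arms, and their part was not tested. The gap test for a single outlying value needs 4 samples and was not run on groups of 3.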

How the results depend on the processing

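Outside the fits that left out a replicate, 270 values kept their direction and their side of the threshold, 6 came to pass it, 14 missed it and 2 changed sign. With all 12 libraries in 1 fit, 2 genes were called between the MEC1 arms in place of 6, a fit that cannot hold *BCL6*, in which *PAX5* (adjusted *P* = 0.0922), *SPIB* (0.0694) and *POU2AF1* (0.541) missed the threshold; the cause was not tested. With library size only, *XBP1* turned to -0.00 between the MEC1 arms and to 0.02 between the lines at baseline. The baseline share of called genes higher in MEC1 went from 50.9% to 60.5% there.

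Leaving out each replicate in turn, the number of these genes called was 4 to 6 in MEC1, 2 to 5 in JVM2, 3 to 5 for the difference between the lines, 7 to 8 at baseline and 6 to 6 in 2B17 cells. Log2 values that crossed 0 were those of *BACH2* (-0.21 to 0.40 in JVM2, -1.56 to 0.71 for the difference), *PAX5* (-0.22 to 0.02 and -0.18 to 0.04), *POU2AF1* (-0.13 to 0.16 and -0.06 to 0.23) and *XBP1* between the MEC1 arms (-0.02 to 0.04). The count of 5 in JVM2 came without JVM2-2B17 replicate 2 and added *EBF1* and *POU2AF1*; the same library gave the count of 5 for the difference. Chosen after seeing the data, the lists were also refitted under every setting: in MEC1 13 to 14 XBP1 pathway genes rose and 0 fell, and in JVM2 0 to 1 rose and 11 to 14 fell. The smaller counts in JVM2 were less stable: with single libraries left out, 3 to 8 B-cell identity genes rose and 1 to 4 fell (3 rose without any 1 library other than JVM2-2B17 replicate 2), 2 to 4 germinal centre genes rose (2 without JVM2-CTRL replicate 2 or JVM2-2B17 replicate 1), and 1 to 5 of the other transcription factors fell (1 without JVM2-CTRL replicate 1 or 3, 5 without JVM2-2B17 replicate 3). Under the other settings, 6 to 7 B-cell identity genes rose and 3 to 5 fell in JVM2. Of the germinal centre genes 2 to 6 rose and 3 to 6 fell there, and of the other transcription factors 4 rose and 1 to 8 fell.

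Same-numbered replicates of the arms did not all deviate together (Pearson *r* across genes of -0.0345, -0.00326 and 0.0385 in MEC1 and 0.0733, 0.107 and -0.00247 in JVM2), so the number was not taken as a pairing. With the replicate block, 5 of the genes were called in MEC1 (*SPIB* lost, adjusted *P* = 0.053), 3 in JVM2 and 3 for the difference, and over all genes 6897, 4236 and 5052 were called. Few counts limit *BACH2* in MEC1, the deeper line, and depth limits all genes of low level in JVM2.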
